A study of Homo sapiens with 49 samples.

Results

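The 59 genes described here encode nucleolar factors that assemble and process the precursors of the ribosome. They were taken by name from a list of pre-ribosome factors, and all 59 were found among the 23621 genes of the expression tables of a study of human neuroblastoma cells. By role, 26 act on the small (40S) subunit, 25 on the large (60S) subunit and 8 are nucleolar proteins with several functions. All 59 had a mean of at least 1 FPKM (fragments per kilobase of transcript, scaled to the number of fragments mapped in the library) in both experiments analysed, so none was lost to that limit on low values.

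The study asked how MYCN acts on transcription in neuroblastoma, and polyadenylated RNA was sequenced in 2 cell models. In SHEP-21N cells, which carry a TET-off MYCN transgene, doxycycline at 0.2 µg/ml shuts the transgene off. The groups were 2, 4, 6, 8, 16 and 24 h of doxycycline (3 libraries each), set against 0 h (2 libraries). In BE(2)-C cells, which carry a TET-on short hairpin RNA against TWIST1, a transcription factor of neuroblastoma cells, doxycycline at 0.5 µg/ml switches the hairpin on. The groups were 3, 6, 12, 24 and 48 h of doxycycline, set against the same cells without doxycycline (3 libraries each). All cells grew in tetracycline-free serum and all carry their construct, the controls included, and no group received doxycycline without the shut-off or the hairpin. Since MYCN in SHEP-21N comes from a transgene, its own promoter is not what the drug acts on. The labels do not say that libraries of a group came from separate cultures, so p-values measure only the spread between these libraries, which may be technical.

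A ribosome begins in the nucleolus, where RNA polymerase I makes one long precursor that holds the 18S, 5.8S and 28S ribosomal RNAs. The UtpA and UtpB complexes and other factors of the small-subunit processome fold and cleave its 5′ end into the 40S precursor, while PeBoW (PES1, BOP1 and WDR12), GTPases, helicases and the carriers of the 5S particle build the 60S precursor. MYC family transcription factors are well known to raise the expression of many of these factors, and cells with high MYC or MYCN activity typically have large nucleoli.

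Values are given on 2 scales: FPKM as the authors computed them (unnormalised), and FPKM that the authors rescaled to synthetic ERCC spike-in RNA added at lysis to counted cells. On the rescaled values a fall of total RNA per cell counts as a fall, but the libraries of a group lie farther apart. Rescaled gene totals ran between 477241 and 1087640 FPKM in SHEP-21N and between 194438 and 1666100 in BE(2)-C. FPKM give no read numbers, so the depth is unknown, and in such bulk samples fewer cells of a type and less RNA per cell cannot be told apart. MYCN stood at 15.6, 15.4 and 15.5 unnormalised FPKM at 24 h and at 715 and 742 at 0 h, and MYC, its paralogue, rose over the same hours by 1.16 on the log2 scale (adjusted p = 4.2e-08). Of the marker lists, 10 of 10 mesenchymal and 3 of 9 adrenergic neuroblastoma genes reached 1 FPKM in SHEP-21N at 0 h, with PHOX2A and STMN2 listed at 0. In BE(2)-C without doxycycline it was 3 of 10 mesenchymal and 9 of 9 adrenergic genes. At 24 h in SHEP-21N the mesenchymal markers summed to 1091 to 1150.1 unnormalised FPKM, against 969 to 1020 at 0 h, and the adrenergic ones to 40.6 to 42.8, against 52.8 to 57.7. Of the 10 mesenchymal genes, PRRX1 (0.55) and COL3A1 (0.62) were higher at 24 h on the spike-in scale and FOSL1 (-2.18) lower. On unnormalised FPKM 7 were higher, adding FN1, YAP1, SNAI2, COL1A1 and TGFBR2, and FOSL1 was lower. The 3 tested adrenergic genes, HAND2 (-0.63), ISL1 (-0.61) and TBX2 (-0.73), were lower on both scales. The part of these shifts in the members' values was not tested. No blood marker reached 1 FPKM in either line before doxycycline, and of the epithelial markers only KRT19 did, at 9.90 FPKM in BE(2)-C.

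After MYCN shut-off in SHEP-21N, most ribosome assembly factors fell, and by 24 h the falls covered both subunits. On the spike-in scale 45 of the 59 members were lower at 24 h than at 0 h at an adjusted p under 0.05, where 32.4% of all 11867 tested genes were, and no member was higher, where 6.16% of all genes were. The median log2 fold change of the members was -0.83, beside -0.31 over all tested genes, and the 59 values ran from -1.52 (MYBBP1A) to 0.14 (HEATR1). On unnormalised FPKM 42 members were lower (36.4% of all genes) and none higher (28.9%), with medians of -0.56 for the members and -0.04 for all genes. All 42 were among the 45. Adjusted p-values here and throughout come from limma's moderated test on log2(FPKM + 1), with Benjamini-Hochberg adjustment over all tested genes, and fold changes are on that scale, which understates changes of low genes. In neither table did any member reach an unadjusted p under 0.05 as higher at 24 h. Leaving out 1 library at a time gave 20 to 52 lower members on the spike-in scale, the 20 without library 2 of 0 h, and 38 to 46 on unnormalised FPKM (libraries are numbered as in the tables, 1 and 2 at 0 h and 0 to 2 elsewhere).

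**Figure D1:**
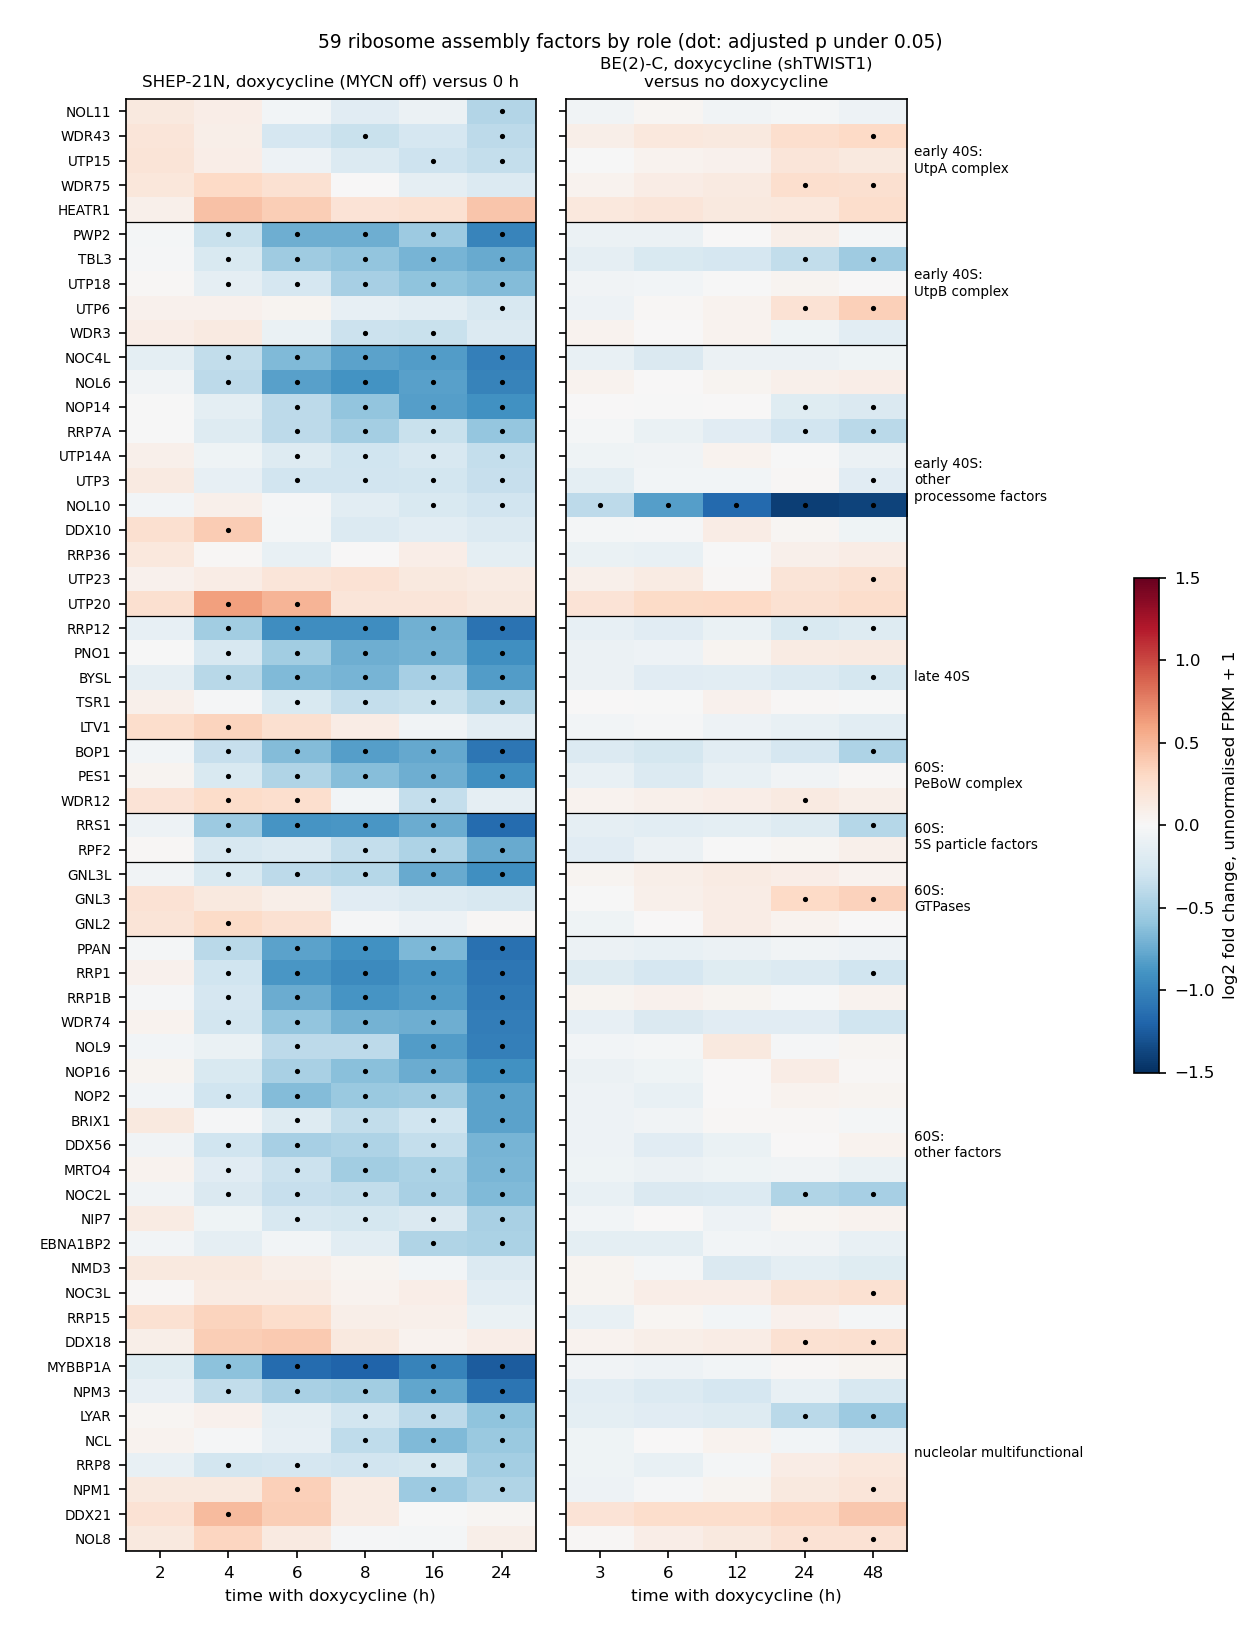
Log2 fold change of each of the 59 members (rows, grouped by role) at each time against the libraries without doxycycline, on unnormalised FPKM, in SHEP-21N after MYCN shut-off and in BE(2)-C with the TWIST1 hairpin. Dots mark an adjusted p under 0.05. Most rows deepen towards 24 h in SHEP-21N, whereas in BE(2)-C NOL10 stands apart from the other rows at every time.

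The fall built up over the day. No member passed the test at 2 h on the spike-in scale in either direction, where 0.0506% of all genes were lower and 0% higher; no member had an unadjusted p under 0.05 in either direction. Nor did any pass at 4 h, where 0.0758% of all genes were lower and 0.00843% higher and where 3 members were lower and 2 higher at an unadjusted p under 0.05. From then on 11 members were lower at 6 h (7.54% of all genes), 10 at 8 h (3.83%) and 9 at 16 h (3.04%). None was higher at these times, where 3.17%, 3.92% and 5.13% of all genes were, nor did any reach an unadjusted p under 0.05 in that direction. The median of the members was 0.00 at 2 h, -0.14 at 4 h, -0.37 at 6 h, -0.36 at 8 h, -0.38 at 16 h and -0.83 at 24 h, while that of all genes lay between -0.14 and -0.03 through 16 h. These counts rest on single libraries: without library 2 of 0 h they were 0 at 6, 8 and 16 h, and without library 1 of 0 h 4, 1 and 1. The 6 h count was 1 without library 2 of 6 h, and the 8 h count was 1 without library 0 and 2 without library 2 of 8 h. The 16 h count was 5, 20 and 2 without libraries 0, 1 and 2 of 16 h, 16 without library 2 of 4 h, and 20 and 19 without libraries 0 and 2 of 24 h, which enter through the shared estimate of the spread.

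On unnormalised FPKM, where libraries of a group lay closer together, more members passed the test and they passed earlier. At 2 h none was lower (0.345% of all genes) or higher (0.236%), with 0 lower and 6 higher at an unadjusted p under 0.05. Lower members numbered 24 at 4 h (18.1% of all genes), 32 at 6 h (29.8%), 37 at 8 h (29.2%) and 41 at 16 h (27.5%). Higher members were 6 at 4 h (15.8%) and 3 at 6 h (26.8%), and none at 8 h (25%) or 16 h (23.8%), where none had an unadjusted p under 0.05 either. The 6 higher at 4 h were DDX10, LTV1, WDR12, GNL2, DDX21 and UTP20, and the 3 at 6 h were WDR12, NPM1 and UTP20. Each of these genes was lower in library 2 than in library 1 of 0 h. UTP20 had 17.7, 22.4 and 12.4 unnormalised FPKM at 4 h, against 13.1 and 8.85 at 0 h, so its groups overlapped. Counts on this scale from 2 to 16 h are given with all libraries only. Most members reached their lowest level at the end: on unnormalised FPKM the lowest group mean fell at 24 h for 48 members, at 16 h for 7 and at 0 h for 4 (HEATR1, UTP20, UTP23 and DDX18).

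**Figure D2:**
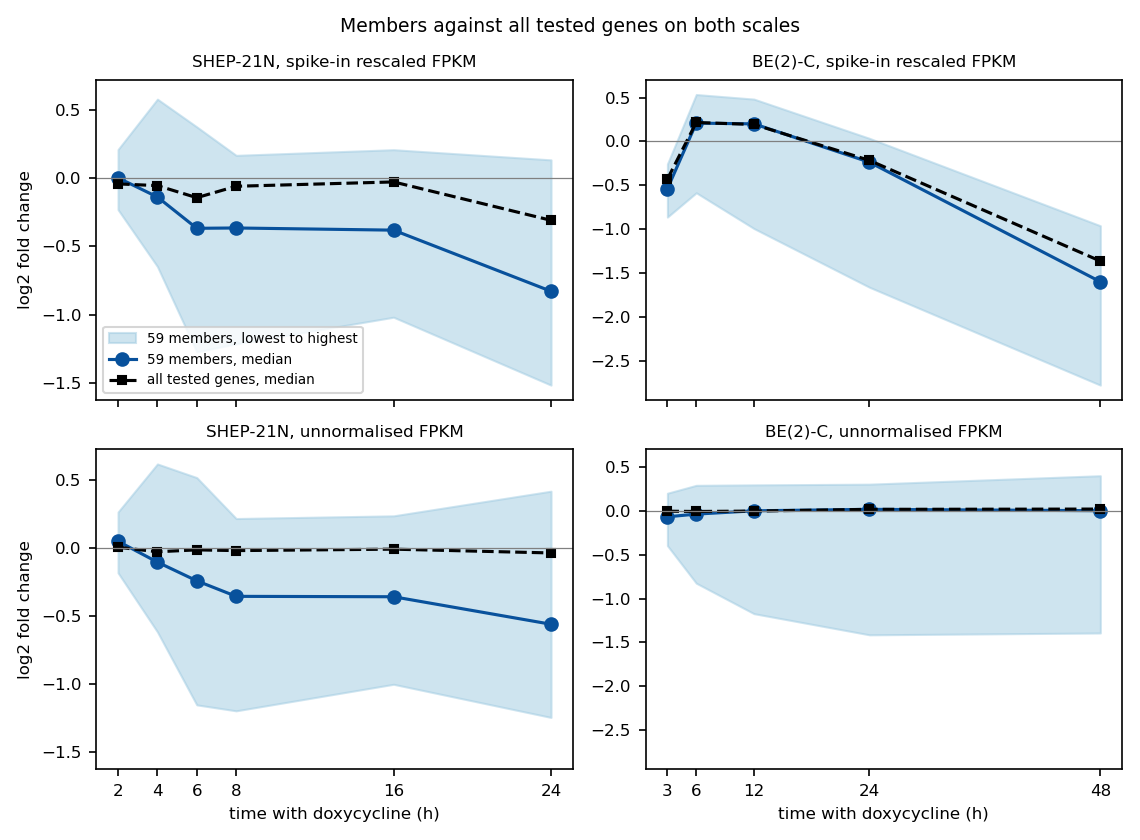
Median log2 fold change of the 59 members (with the range over members) and of all tested genes at each time against no doxycycline, on spike-in rescaled and on unnormalised FPKM, in SHEP-21N and BE(2)-C. In SHEP-21N the members' median falls below that of all genes on both scales and reaches -0.83 and -0.56 at 24 h. In BE(2)-C the members' median follows that of all genes, to -1.60 and 0.00 at 48 h.

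Of the small-subunit factors, UtpA, the complex that binds the nascent precursor first, changed unevenly. On the spike-in scale 4 of its 5 members were lower at 24 h (median -0.63), and on unnormalised FPKM 3. NOL11 had 55.3, 44.7 and 37.8 rescaled FPKM at 24 h, against 73.2 and 76.6 at 0 h, a log2 fold change of -0.71 (SE 0.19, adjusted p = 0.0096). HEATR1, the largest UtpA protein, had 19.5, 17.2 and 14.2 rescaled FPKM at 24 h, against 17.7 and 13.1 at 0 h (log2 fold change 0.14, SE 0.20, adjusted p = 0.61). The groups of NOL11 did not overlap and those of HEATR1 did, with its 0 h libraries far apart. On unnormalised FPKM HEATR1 had 17.7, 19.2 and 19.6 at 24 h, against 17.1 and 11.2 at 0 h (log2 fold change 0.42, SE 0.21, adjusted p = 0.095). All 3 of its 24 h libraries were above both 0 h libraries on that scale, and without library 1 of 0 h it passed the test as higher. WDR43 (-0.67) and UTP15 (-0.63) were lower on both scales, and WDR75 (-0.48) on the spike-in scale.

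UtpB, which joins UtpA on the 5′ end of the precursor, had 4 of 5 members lower at 24 h on both scales, with a median of -0.93 on the spike-in scale. PWP2, a scaffold of the complex, had 23.9, 19.9 and 15.2 rescaled FPKM at 24 h, against 42.9 and 53.2 at 0 h (log2 fold change -1.26, SE 0.22, adjusted p = 0.00061). WDR3 had 39.3, 31.3 and 23.9 at 24 h, against 43.1 and 43.6 at 0 h (log2 fold change -0.48, SE 0.20, adjusted p = 0.065). Both 0 h libraries of PWP2 lay above all 24 h libraries, and the groups of WDR3 did not overlap either, although WDR3 did not pass the test. TBL3 (-1.03), UTP18 (-0.93) and UTP6 (-0.51) were the other lower members.

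The other 11 processome factors had a median of -0.62, with 8 lower on the spike-in scale and 7 on unnormalised FPKM. NOC4L, which works as a pair with NOP14, had 28.0, 27.2 and 18.9 rescaled FPKM at 24 h, against 54.0 and 70.3 at 0 h (log2 fold change -1.30, SE 0.24, adjusted p = 0.00085), and NOP14 itself changed by -1.18. UTP20, a very large scaffold protein, had 12.5, 10.5 and 9.61 at 24 h, against 13.6 and 10.3 at 0 h (log2 fold change -0.12, SE 0.19, adjusted p = 0.62). UTP23, a factor tied in yeast to release of the snR30 small nucleolar RNA, had 5.95, 4.24 and 3.94 at 24 h, against 5.76 and 4.85 at 0 h (log2 fold change -0.16, SE 0.16, adjusted p = 0.45). NOC4L was well separated between the groups, while the 24 h values of UTP20 surrounded one of its 0 h values and those of UTP23 also overlapped. NOL6, the UtpC protein, changed by -1.28 and RRP7A, its partner, by -0.85. Among the rest UTP14A (-0.64), UTP3 (-0.62), NOL10 (-0.56) and the helicase DDX10 (-0.48) were lower on the spike-in scale, DDX10 on that scale alone, and RRP36 (-0.42) did not pass the test. The tables also hold rows for RRP7B and UTP14C, near copies of RRP7A and UTP14A, so how reads were shared within these pairs is uncertain.

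Late 40S factors, which accompany the precursor to the cytoplasm, had a median of -1.11 with 4 of 5 lower on both scales. RRP12, which takes part in export of the precursor, had 31.8, 26.9 and 20.8 rescaled FPKM at 24 h, against 62.4 and 78.3 at 0 h (log2 fold change -1.39, SE 0.23, adjusted p = 0.00042). On unnormalised FPKM the same libraries had 28.8, 30.0 and 28.9 at 24 h, against 61.2 and 67.7 at 0 h (log2 fold change -1.11, SE 0.09, adjusted p = 6.7e-08). LTV1 had 33.7, 27.8 and 22.3 rescaled FPKM at 24 h, against 38.6 and 36.4 at 0 h (log2 fold change -0.43, SE 0.20, adjusted p = 0.087). The highest 24 h library of RRP12 was far under the lower 0 h library, on both scales, and the groups of LTV1, which did not pass the test, lay close together without overlapping. PNO1 (-1.19), BYSL (-1.11) and TSR1 (-0.73) completed the list.

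**Figure D3:**
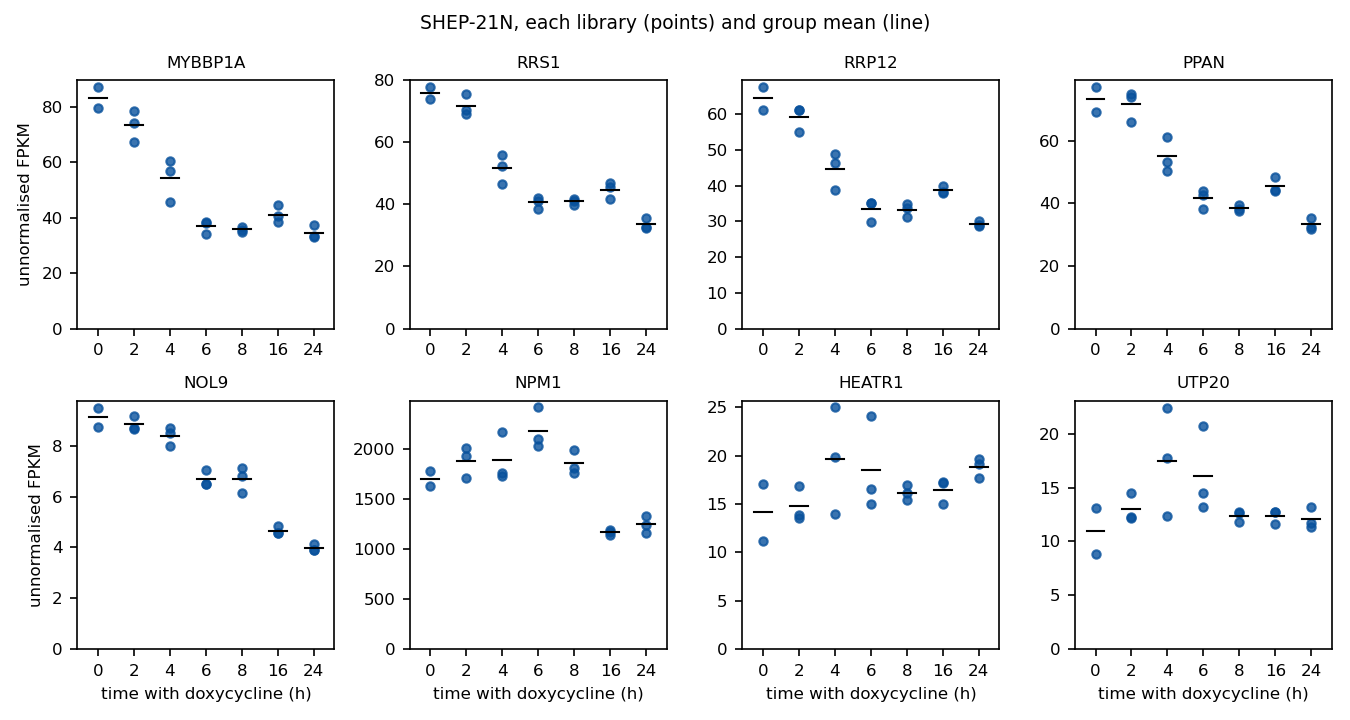
Unnormalised FPKM of 8 members in every SHEP-21N library at 0, 2, 4, 6, 8, 16 and 24 h of doxycycline (points, 1 per library, with lines through the means). MYBBP1A, RRS1, RRP12 and PPAN are low from 6 h on, NOL9 and NPM1 reach their lowest levels late, and HEATR1 and UTP20 have their lowest mean at 0 h, where the 2 libraries lie apart.

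Large-subunit factors held 3 of the 6 members with the lowest fold changes, namely RRS1, PPAN and BOP1. The median of the PeBoW complex, which is needed to process the 28S side of the precursor, was -1.19, with BOP1 and PES1 (-1.19) lower on both scales. BOP1 had 59.1, 49.7 and 35.7 rescaled FPKM at 24 h, against 109 and 138 at 0 h (log2 fold change -1.36, SE 0.25, adjusted p = 0.00079). WDR12 had 30.1, 24.2 and 19.5 at 24 h, against 31.9 and 33.1 at 0 h (log2 fold change -0.41, SE 0.19, adjusted p = 0.087). The 3 proteins work as 1 complex, yet the groups of BOP1 lay far apart and those of WDR12, which did not overlap either, lay close together.

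The RPF2 and RRS1 proteins bring the 5S particle into the 60S precursor, and both were lower on both scales (median -1.23). RRS1 had 39.3, 29.3 and 23.3 rescaled FPKM at 24 h, against 75.1 and 90.0 at 0 h (log2 fold change -1.43, SE 0.23, adjusted p = 0.00039). RPF2 had 81.9, 59.4 and 47.2 at 24 h, against 116 and 136 at 0 h (log2 fold change -1.03, SE 0.22, adjusted p = 0.0026). Neither gene overlapped between the groups. Of the GTPases that check 60S maturation, GNL3L had 6.45, 5.81 and 4.11 at 24 h, against 12.2 and 15 at 0 h (log2 fold change -1.19, SE 0.19, adjusted p = 0.00039). GNL2 had 54.4, 44.6 and 35.7 at 24 h, against 54.3 and 52.3 at 0 h (log2 fold change -0.26, SE 0.19, adjusted p = 0.28), and GNL3 (nucleostemin) changed by -0.52, lower on the spike-in scale alone. GNL3L separated cleanly between the groups, and GNL2 overlapped.

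Among the 17 other 60S factors 13 were lower on both scales, with a median of -0.97. PPAN, a factor of early 60S assembly, had 39.1, 29.1 and 23.0 rescaled FPKM at 24 h, against 70.5 and 89.2 at 0 h (log2 fold change -1.39, SE 0.24, adjusted p = 0.00056). DDX18, an RNA helicase, had 43.3, 34.8 and 28.1 at 24 h, against 42.5 and 36.8 at 0 h (log2 fold change -0.18, SE 0.20, adjusted p = 0.50). NOC2L had 170.1, 140.2 and 108 at 24 h, against 232 and 296 at 0 h (log2 fold change -0.93, SE 0.24, adjusted p = 0.0071), with the third highest mean of the members in these cells. PPAN and NOC2L were separated between the groups, and DDX18 overlapped. The tables also hold a PPAN-P2RY11 readthrough row, so the share of reads given to PPAN is uncertain. Next to PPAN came the nucleolar proteins RRP1 (-1.36) and RRP1B (-1.33), WDR74 (-1.31) and NOL9 (-1.28), a polynucleotide kinase of internal spacer cleavage. NOP16 (-1.18), the 28S RNA methyltransferase NOP2 (-1.08), BRIX1 (-1.07), the helicase DDX56 (-0.97) and MRTO4 (-0.96), a placeholder for the ribosomal stalk, followed. NIP7 changed by -0.76 and EBNA1BP2 by -0.75. The export adaptor NMD3 (-0.48), NOC3L (-0.44) and RRP15 (-0.37) did not pass the test on either scale.

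The 8 multifunctional nucleolar proteins had a median of -0.81 and 6 were lower on both scales. MYBBP1A, a nucleolar protein that binds transcription factors and takes part in precursor processing, had 36.8, 33.5 and 24.0 rescaled FPKM at 24 h, against 81.1 and 101 at 0 h (log2 fold change -1.52, SE 0.24, adjusted p = 0.00032). On unnormalised FPKM it had 33.2, 37.4 and 33.3 at 24 h, against 79.7 and 87.1 at 0 h (log2 fold change -1.24, SE 0.10, adjusted p = 7.4e-08). NPM3, a nucleoplasmin, had 71.3, 51.6 and 40.9 rescaled FPKM at 24 h, against 120.5 and 159 at 0 h (log2 fold change -1.36, SE 0.25, adjusted p = 0.00093). The 24 h libraries of both genes lay below all 0 h libraries. The unnormalised values of MYBBP1A were close to each other within a group, whereas the rescaled ones put library 0 of 24 h highest and library 2 lowest, as they did for every member shown here.

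The most abundant members were NPM1 (nucleophosmin), a histone and ribosomal protein chaperone, and NCL (nucleolin). NPM1 had 1478, 1038 and 878 rescaled FPKM at 24 h, against 1766 and 1857 at 0 h (log2 fold change -0.71, SE 0.21, adjusted p = 0.015). NCL had 428, 344 and 259 at 24 h, against 570.1 and 629 at 0 h (log2 fold change -0.83, SE 0.21, adjusted p = 0.0067). NOL8 had 6.92, 5.74 and 4.82 at 24 h, against 7.62 and 5.88 at 0 h (log2 fold change -0.19, SE 0.19, adjusted p = 0.44). NCL separated between the groups and so did NPM1, by a smaller margin, while NOL8 overlapped. Reads of NPM1 may also stem from its many processed pseudogenes, which makes its level uncertain. LYAR (-0.87) and RRP8 (-0.78), which takes part in silencing ribosomal DNA, were lower, and the helicase DDX21, which couples RNA polymerase I transcription to processing, was not (-0.24, adjusted p = 0.37).

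Members differed in when they first passed the test as lower. That time also depends on the size of a change and on the spread, so it does not measure timing alone. At an adjusted p under 0.05 on unnormalised FPKM, 44 members were lower at some time, as were 46.8% of all tested genes. Of the 44, 24 were first lower at 4 h (17.8% of all tested genes), 9 at 6 h (13.6%), 4 at 8 h (3.82%), 5 at 16 h (6.46%) and 2 at 24 h (4.71%). At 4 h 16 members were lower on values centred on library medians, and none on the spike-in scale. MYBBP1A had means that reached 92.6% of their 24 h fall (as a share of the log2 fold change) by 6 h, RRP12 83.5%, NOL6 81.6%, RRP1 80.7% and NOP2 80.2%. NOL9 had reached 38.9% by 6 h, NCL 21.0% and EBNA1BP2 8.39%. These shares use the same 0 h libraries on both sides and are given as a description.

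MYBBP1A stood at 79.7 and 87.1 unnormalised FPKM at 0 h, 78.6, 67.4 and 74.2 at 2 h, 57.0, 45.6 and 60.6 at 4 h, 38.2, 38.6 and 34.1 at 6 h, 34.8, 35.8 and 36.8 at 8 h, 40.6, 44.5 and 38.5 at 16 h and 33.2, 37.4 and 33.3 at 24 h. Its libraries from 4 h on all lay below those of 0 and 2 h, and those of 16 h lay above those of 8 and 24 h. RRS1 stood at 73.8 and 77.8 unnormalised FPKM at 0 h, 70.5, 69.2 and 75.4 at 2 h, 52.4, 46.4 and 55.9 at 4 h, 41.2, 42.2 and 38.6 at 6 h, 41.1, 41.8 and 39.9 at 8 h, 41.8, 46.7 and 45.6 at 16 h and 35.5, 32.7 and 32.5 at 24 h. RRS1 likewise had every library from 4 h on below those of 0 and 2 h, and its 24 h libraries were the lowest of all. NPM1 took another course, with 1774 and 1627 at 0 h, 2093, 2030.1 and 2415 at 6 h, 1142, 1172 and 1189 at 16 h and 1327, 1160.3 and 1241 at 24 h. It was higher at 6 h than at 0 h (log2 fold change 0.35, SE 0.10, adjusted p = 0.0084) and lower at 24 h (log2 fold change -0.45, SE 0.10, adjusted p = 0.0012).

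The later stretch of the day was tested directly by setting 24 h against 8 h. On the spike-in scale 3 members were lower (1.33% of all genes), namely NPM1 (log2 fold change -0.87, SE 0.19, adjusted p = 0.035), NOL9 (log2 fold change -0.83, SE 0.15, adjusted p = 0.021) and GNL3L (log2 fold change -0.70, SE 0.17, adjusted p = 0.046). On unnormalised FPKM 28 were lower (19.2% of all genes). NOL9 had 3.88, 4.14 and 3.90 unnormalised FPKM at 24 h, against 6.13, 6.80 and 7.12 at 8 h. GNL3L had 5.89, 6.48 and 5.63 at 24 h, against 8.50, 8.64 and 9.28 at 8 h. NPM1 had 1327, 1160.3 and 1241 at 24 h, against 1989.6, 1805 and 1758 at 8 h. Each of these genes had all its 24 h libraries below all its 8 h libraries. The number on the spike-in scale rests on single libraries: it was 43 without library 0 of 24 h, and 0 without library 0 or 1 of 8 h or without library 1 or 2 of 24 h. It was 7 and 5 without libraries 0 and 1 of 16 h, and 5 without library 2 of 4 h. It was 1 without either library of 0 h, library 1 of 2 h, any library of 6 h or library 2 of 16 h.

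Transcript length moved with part of the spread among members. Over the 59 genes, the unnormalised log2 fold change and the log2 length of the annotated transcript had a Pearson r of 0.36 at 4 h and 0.36 at 24 h. Over the 10415 tested genes with a length it was 0.37 and 0.30. The points share their libraries, and in library 2 of 0 h genes with transcripts of at least 5000 nt lay low relative to those under 2000 nt (a difference of median log2 deviations of 0.11 to 0.25 in the 24 h libraries, and of -0.31 in library 2 and -0.14 in library 1 of 0 h). The 10 members with such long transcripts (HEATR1, TBL3, WDR3, UTP20, TSR1, WDR12, RRP1B, RRP15, NOL9 and RRP8) had a median of -0.33 at 24 h on unnormalised FPKM and the other 49 a median of -0.60. HEATR1 and UTP20 are among these 10, and library 2 of 0 h is the one in which both were low; the part of length in their values was not tested.

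Genes of neighbouring steps were read from lists that are not members. Of 15 RNA polymerase I subunits and factors, 10 were lower at 24 h on the spike-in scale (median -0.82), among them CD3EAP (-2.01), POLR1A (-1.13), TAF1A (-0.91) and ZNRD1 (-1.29). Of 11 genes listed for the small nucleolar ribonucleoprotein particles, which guide modification and cleavage of the precursor, 10 were lower (median -0.92). Among them were RRP9 (-1.90), NOP56 (-1.12), the methyltransferase FBL (-1.20) and TCOF1 (-1.12). TCOF1 and NOLC1 are nucleolar proteins kept in this list that are not parts of the particles. Of 55 further ribosome assembly factors, 43 were lower (median -0.76), among them NLE1 (-1.62), the helicase DHX37 (-1.38), NOM1 (-1.09) and URB2 (-1.16). Of 14 proteins of the RNA exosome, which trims the 3′ ends of precursors, and its helpers, 10 were lower (median -0.66), among them EXOSC4 (-1.39), EXOSC5 (-1.16), EXOSC3 (-0.76) and MPHOSPH6 (-0.68). No gene of these 4 lists was higher on the spike-in scale, where 32.4% of all tested genes were lower and 6.16% higher. On unnormalised FPKM 10, 10, 43 and 11 were lower, in the same order of lists, and 1, 0, 1 and 1 were higher. Over all tested genes 36.4% were lower and 28.9% higher on that scale.

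Among genes outside the list, those whose 7 group means on the spike-in scale ran most like the mean of the members were MTPAP, HNRNPU, CTCF, HNRNPF and EXOSC2, with a Pearson r of at least 0.997. The members themselves had a median r of 0.951 with their own mean, the lowest being HEATR1 at -0.149. These points share the spike-in rescaling of each time, and the values are a description.

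The CACGTG E-box, which MYC family proteins bind together with MAX, was looked for on both strands in the promoter windows of the members, 250 bases before to 50 bases after the start. RefSeq windows (GRCh38.p14) were matched for 51 of the 59 genes; UTP23, NOL10, RRP12, BOP1, RPF2, RRS1, RRP1B and DDX18 were not matched. The motif was in 18 of the 51 (35.3%), in 10.6% of the 9366 tested genes with a window and in 7.43% of all 27305 genes with one. In 14 of these 18 members (77.8%) a CACGTG began within the first 50 bases of the gene, as it did in 119 of the 991 tested genes with the motif (12.0%). Members with and without it had median log2 fold changes of -0.94 and -0.76 at 24 h on the spike-in scale, and tested genes -0.43 and -0.30. The 5 windows shown first belong to members with the motif and the lowest fold changes at 24 h. That of HEATR1, the member with the highest, holds none. Capitals mark CACGTG. The windows shown were picked by fold change and do not stand for all members. PPAN (-1.39), NPM3 (-1.36) and RRP1 (-1.36) hold no CACGTG, while UTP20 (-0.12), NOL8 (-0.19) and GNL2 (-0.26) hold it. MYBBP1A lies at chr17:4555335-4555634 (minus strand, motif from base 28 of the gene), NOL6 at chr9:33473875-33474174 (minus, base 14) and PWP2 at chr21:44107149-44107448 (plus, base 2). PNO1 lies at chr2:68157638-68157937 (plus, base 10), PES1 at chr22:30591861-30592160 (minus, base 14) and HEATR1 at chr1:236604467-236604766 (minus).
MYBBP1A: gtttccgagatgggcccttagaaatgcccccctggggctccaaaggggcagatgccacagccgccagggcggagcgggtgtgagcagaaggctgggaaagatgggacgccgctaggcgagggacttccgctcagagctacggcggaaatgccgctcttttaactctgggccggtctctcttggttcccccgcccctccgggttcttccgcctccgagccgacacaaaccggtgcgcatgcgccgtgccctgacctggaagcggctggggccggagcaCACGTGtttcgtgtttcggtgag
NOL6: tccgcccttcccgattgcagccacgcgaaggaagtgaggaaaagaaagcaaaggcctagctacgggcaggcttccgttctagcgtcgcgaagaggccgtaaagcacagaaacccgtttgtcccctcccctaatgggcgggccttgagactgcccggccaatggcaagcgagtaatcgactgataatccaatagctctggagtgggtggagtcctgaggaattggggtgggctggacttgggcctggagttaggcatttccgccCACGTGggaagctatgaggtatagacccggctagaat
PWP2: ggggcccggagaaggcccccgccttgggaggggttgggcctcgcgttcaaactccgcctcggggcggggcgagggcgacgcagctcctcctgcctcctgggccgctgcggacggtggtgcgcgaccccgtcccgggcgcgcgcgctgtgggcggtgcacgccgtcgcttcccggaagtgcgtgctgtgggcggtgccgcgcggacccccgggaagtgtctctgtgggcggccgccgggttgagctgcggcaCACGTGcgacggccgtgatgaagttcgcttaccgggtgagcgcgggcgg
PNO1: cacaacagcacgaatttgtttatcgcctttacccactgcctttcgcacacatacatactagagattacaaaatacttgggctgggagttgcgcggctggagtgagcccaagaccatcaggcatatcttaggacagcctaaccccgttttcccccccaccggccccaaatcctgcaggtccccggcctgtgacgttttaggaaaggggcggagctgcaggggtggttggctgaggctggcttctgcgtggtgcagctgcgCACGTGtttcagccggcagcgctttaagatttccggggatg
PES1: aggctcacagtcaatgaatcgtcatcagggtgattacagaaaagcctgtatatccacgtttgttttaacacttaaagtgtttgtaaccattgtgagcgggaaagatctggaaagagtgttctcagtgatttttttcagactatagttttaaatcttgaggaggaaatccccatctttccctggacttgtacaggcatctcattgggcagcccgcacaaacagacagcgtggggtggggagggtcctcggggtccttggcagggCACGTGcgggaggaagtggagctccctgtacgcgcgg
HEATR1: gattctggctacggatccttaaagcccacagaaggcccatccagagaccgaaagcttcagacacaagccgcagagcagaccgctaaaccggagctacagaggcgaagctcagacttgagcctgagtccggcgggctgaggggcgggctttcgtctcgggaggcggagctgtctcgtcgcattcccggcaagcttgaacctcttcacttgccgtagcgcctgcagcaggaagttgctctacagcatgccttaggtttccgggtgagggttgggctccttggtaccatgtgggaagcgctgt

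Other motifs were searched in the same windows, also on both strands. CACGCG, a variant E-box, was in 25.5% of the 51 members, in 18.7% of tested genes and in 11.4% of all genes. CANNTG, the general E-box of which CACGTG is one form, was in 74.5%, 59.3% and 68.9%, and GGGCGG, the GC box, in 72.5%, 71.2% and 44.6%. The TATA element, read as TATAAA, was in 5.88%, 5.34% and 12.0%. A match describes the letters of these windows and not binding.

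With the TWIST1 hairpin in BE(2)-C, what the members showed depended on the scale. On spike-in rescaled FPKM all 59 were lower at 48 h than without doxycycline, as were 93.3% of all 11433 tested genes; none was higher, where 0.131% of all genes were, nor had any an unadjusted p under 0.05 in that direction. The median of the members was -1.60, beside -1.36 over all genes. On unnormalised FPKM 12 members were lower at 48 h (21.3% of all genes) and 9 higher (18.1%), and the medians were 0.00 and 0.02. The summed level of the 59 members was 5332 ± 236 unnormalised FPKM at 48 h and 5253 ± 311 without doxycycline (SD, n = 3 each), and 2249 ± 1059 and 6683 ± 1441 on the rescaled values. In SHEP-21N the unnormalised sum was 3885 ± 116 at 24 h (SD, n = 3) and 5835 ± 63.9 at 0 h (SD, n = 2). The unnormalised total over all genes was also lower there, at 669720 to 704281 FPKM at 24 h, against 889182 and 946073 at 0 h. As a mean share of the total, the members stood at 0.569% at 24 h and 0.637% at 0 h. In BE(2)-C that share was 0.690% at 48 h and 0.625% without doxycycline. Its values in libraries 0, 1 and 2 were 0.682%, 0.720% and 0.669% at 48 h and 0.646%, 0.546% and 0.683% without doxycycline. The unnormalised sums of these 3 control libraries were 5118, 5609 and 5032 FPKM. Library 1 of the controls was thus the lowest of them in share and the highest in sum. NPM1 and NCL weigh most in these sums. A test across the cell lines was not made, as their tables were processed separately.

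TWIST1 had 18.9, 17.7 and 17.7 unnormalised FPKM at 48 h, against 57.9, 74.6 and 62.1 without doxycycline. Before 48 h members on the spike-in scale hardly passed the test: none was lower at 3 h (0.0175% of all genes), 6 h (0.0175%) or 12 h (0.0262%), with 1, 0 and 1 at an unadjusted p under 0.05. At 24 h 1 member, NOL10, was lower (0.586%), and 0 were without library 0 of the controls or library 0 or 2 of 24 h. Medians of the members on that scale were -0.54 at 3 h, 0.21 at 6 h, 0.20 at 12 h and -0.24 at 24 h, and those of all genes -0.43, 0.22, 0.19 and -0.22. Between 48 h and 24 h all 59 were lower (92.3% of all genes). On unnormalised FPKM none was lower in that comparison (1.84% of all genes), and 3 were at an unadjusted p under 0.05.

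NOL10 was the member that changed from the first hours. This processome factor is the human form of yeast Enp2. NOL10 had 25.5, 28.9 and 26.3 unnormalised FPKM without doxycycline, 19.3, 21.3 and 20.1 at 3 h, 14.97, 14.4 and 14.9 at 6 h, 11.04, 11.7 and 11.5 at 12 h, 9.78, 9.30 and 9.38 at 24 h and 9.29, 9.51 and 10.1 at 48 h. Every library with the hairpin on lay below every library without it, and those of 24 and 48 h lay within the same narrow range. Its log2 fold change was -0.40 (SE 0.05, adjusted p = 0.012) at 3 h, -0.82 (SE 0.05, adjusted p = 6.0e-07) at 6 h, -1.17 (SE 0.05, adjusted p = 2.6e-09) at 12 h, -1.41 (SE 0.05, adjusted p = 9.9e-11) at 24 h and -1.39 (SE 0.05, adjusted p = 6.1e-11) at 48 h. TWIST1, the target of the hairpin, changed by -0.47, -0.93, -1.38, -1.64 and -1.78 over the same times. These groups hold no other hairpin, so loss of TWIST1 and other effects of the hairpin or of doxycycline cannot be told apart.

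No other member was lower at 3, 6 or 12 h on unnormalised FPKM, where 0.0175%, 0.472% and 3.33% of all genes were lower. At 3 h NOL10 was 1 of 2 genes that passed the test as lower. By fold change many genes outside the list fell further. Counted from the lowest of the 11433 tested genes, NOL10 ranked 84 at 3 h, 71 at 6 h, 55 at 12 h, 61 at 24 h and 90 at 48 h. The next lowest member at those times was BOP1 at -0.21 and -0.26, and NPM3 at -0.25. Both were far higher in library 1 of the controls than in libraries 0 and 2. There BOP1 had 87.2 unnormalised FPKM, against 56.9 and 54.5, and NPM3 had 110, against 72.9 and 65.9. At 3 h NOL10 no longer passed the test without library 0 or library 2 of 3 h (adjusted p up to 0.14), with values of -0.43 to -0.34 over the libraries left out. At 6, 12, 24 and 48 h it passed without any single library. On the spike-in scale it had 3.86, 6.17 and 2.70 rescaled FPKM at 48 h, against 40.2, 26.9 and 35.2 without doxycycline (log2 fold change -2.78, SE 0.34, adjusted p = 4.4e-07). Those groups did not overlap either.

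**Figure D4:**
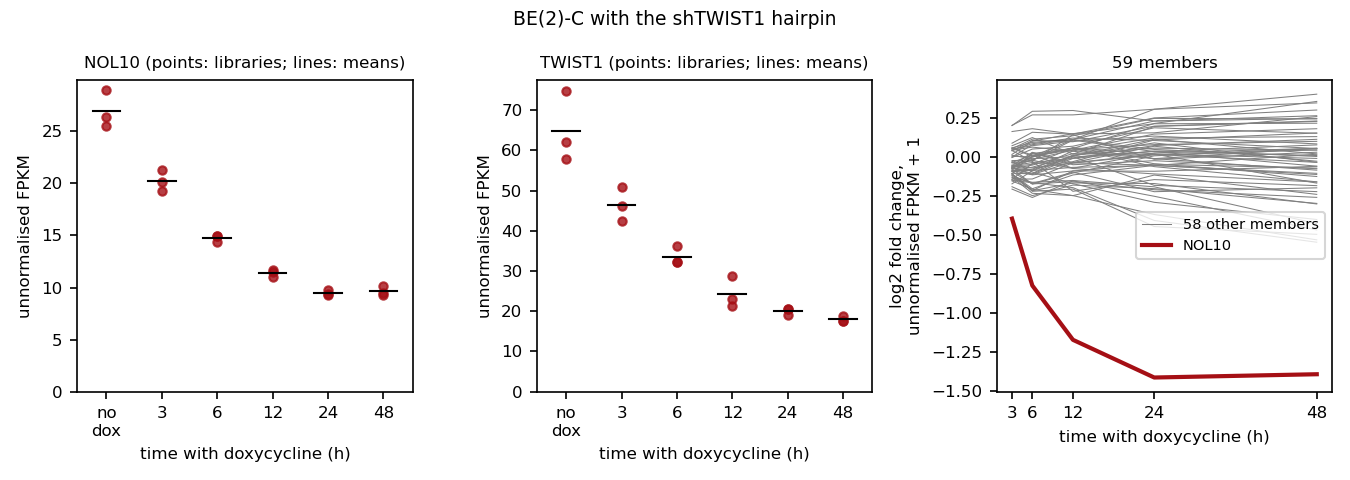
Unnormalised FPKM of NOL10 and TWIST1 in every BE(2)-C library without doxycycline and at 3, 6, 12, 24 and 48 h of doxycycline (points, 1 per library), and the log2 fold changes of all 59 members over these times (lines). NOL10 lies below every other member from 3 h to 48 h, ending at -1.39 where the next lowest member, LYAR, ends at -0.55.

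One library without doxycycline, library 1, stood apart from the others. Its genes with transcripts of at least 5000 nt lay low against those under 2000 nt (difference of median log2 deviations -0.76, where the other 17 libraries ran from -0.13 to 0.19), and members followed. HEATR1 had 14.4, 8.10 and 13.8 unnormalised FPKM in libraries 0, 1 and 2 without doxycycline, and BOP1 had 56.9, 87.2 and 54.5. In another library, library 2 of 12 h, MYC stood at 9.69 FPKM, while the other 17 libraries had at most 0.25. Leaving that library out kept the 12 h count on the spike-in scale at 0. Counts of calls at 48 h on unnormalised FPKM are therefore given with and without library 1.

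The 12 members lower at 48 h on unnormalised FPKM were TBL3, UTP3, RRP7A, NOP14 and NOL10 of the processome, the late 40S factors BYSL and RRP12, the 60S factors BOP1, RRS1, RRP1 and NOC2L, and LYAR. Without library 1 there were 13 (28.3% of all genes), of which 9 were among the 12: UTP3, RRP1 and RRP12 no longer passed the test, and RRP1B, GNL3L, NMD3 and WDR3 did. LYAR had 20.3, 22.8 and 17.7 unnormalised FPKM at 48 h, against 28.7, 33.6 and 27.7 without doxycycline (log2 fold change -0.55, SE 0.09, adjusted p = 0.0002), and -0.47 without library 1. TBL3 had 25.5, 26.6 and 26.8 at 48 h, against 34.5, 50.8 and 32.3 without doxycycline (log2 fold change -0.53, SE 0.11, adjusted p = 0.0016), and -0.33 without library 1. NOC2L had 46.9, 47.8 and 50.6 at 48 h, against 63.5, 82.0 and 62.2 without doxycycline (log2 fold change -0.50, SE 0.08, adjusted p = 0.00016), and -0.37 without library 1. In all of these genes each 48 h library lay below each library without doxycycline. RRS1 changed by -0.43 and BOP1 by -0.47, and without library 1 by -0.33 and -0.26.

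The 9 members that were higher at 48 h were WDR43 (0.30), WDR75 (0.24), UTP6 (0.35), UTP23 (0.23), GNL3 (0.35), NOC3L (0.23), DDX18 (0.25), NPM1 (0.18) and NOL8 (0.22). Without library 1 there were 17 (27.7% of all genes), of which 7 were among the 9; UTP23 and NOL8 no longer passed the test, and RRP8, RRP36, NOP2, NOP16, PES1, NOC4L, DDX21, DDX56, PNO1 and RPF2 did. GNL3 had 72.8, 73.7 and 70.0 unnormalised FPKM at 48 h, against 56.5, 56.4 and 56.9 without doxycycline (log2 fold change 0.35, SE 0.07, adjusted p = 0.0011). UTP6 had 34.1, 35.4 and 32.7 at 48 h, against 24.9, 27.8 and 26.5 without doxycycline (log2 fold change 0.35, SE 0.07, adjusted p = 0.0011). DDX21 had 131, 137 and 126 at 48 h, against 123, 65.6 and 121 without doxycycline (log2 fold change 0.40, SE 0.16, adjusted p = 0.06). None of the 3 genes overlapped between the groups, but in DDX21, which did not pass the test, library 1 without doxycycline lay far below the other two. Without that library GNL3 was at 0.34, UTP6 at 0.39 and DDX21 at 0.11. The number of higher members was 5 without library 1 of 48 h. At 24 h on unnormalised FPKM 7 members were lower (13.6% of all genes) and 6 higher (9.55%). These 24 h counts are given with all libraries only, library 1 of the controls included.

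By role, changes in BE(2)-C at 48 h were small on unnormalised FPKM. UtpA had 0 of 5 members lower and 2 higher, UtpB 1 and 1, the other 11 processome factors 4 and 1, and the late 40S factors 2 and 0. Among 60S factors PeBoW had 1 lower and 0 higher, the 5S particle factors 1 and 0, the GTPases 0 and 1 and the 17 others 2 and 2. The 8 multifunctional proteins had 1 lower and 2 higher. Over all tested genes 21.3% were lower and 18.1% higher. Without library 1 of the controls, where 28.3% and 27.7% were, UtpA had 0 lower and 2 higher, UtpB 2 and 1, the other processome factors 3 and 2 and the late 40S factors 1 and 1. PeBoW, the 5S particle factors and the GTPases each had 1 and 1, the 17 other 60S factors 3 and 5, and the multifunctional proteins 1 and 3. On the spike-in scale, where every member passed the test, the role medians ran only from -1.77 (5S particle factors) to -1.31 (UtpA and the GTPases).

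Rescaled levels of the extreme members show how that scale behaved in BE(2)-C, where 93.3% of all tested genes were lower at 48 h. NOC2L had 18.7, 29.5 and 12.9 rescaled FPKM at 48 h, against 101, 77.6 and 81.9 without doxycycline (log2 fold change -2.10, SE 0.35, adjusted p = 2.2e-05). LYAR had 8.25, 14.4 and 4.61 at 48 h, against 45.4, 31.4 and 36.9 (log2 fold change -2.05, SE 0.37, adjusted p = 4.2e-05). NOL9 had 1.16, 1.95 and 0.95 at 48 h, against 3.92, 2.26 and 4.73 (log2 fold change -0.96, SE 0.30, adjusted p = 0.0046). In all 3 genes the 48 h libraries lay below all libraries without doxycycline, and library 1 was the highest of the 48 h libraries. TBL3 had 10.3, 16.7 and 6.92 at 48 h, against 54.7, 47.8 and 42.8 (log2 fold change -2.08, SE 0.35, adjusted p = 2.2e-05). BOP1 had 18.2, 27.9 and 12.5 at 48 h, against 90.4, 82.5 and 71.9 (log2 fold change -2.07, SE 0.35, adjusted p = 2.7e-05). RRS1 had 11.8, 20.4 and 7.86 at 48 h, against 62.1, 45.3 and 50.9 (log2 fold change -1.99, SE 0.36, adjusted p = 5.5e-05). These processome and 60S factors again had all their 48 h libraries below those without doxycycline.

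The 3 most abundant members in BE(2)-C were NPM1, NCL and DDX21. NPM1 had 779, 1305 and 474 rescaled FPKM at 48 h, against 2809, 1832 and 2233 without doxycycline (log2 fold change -1.52, SE 0.36, adjusted p = 0.00045). NCL had 338, 573 and 217 at 48 h, against 1574, 936 and 1260.0 (log2 fold change -1.82, SE 0.37, adjusted p = 0.00014). DDX21 had 51.6, 83.6 and 32.0 at 48 h, against 195, 62.1 and 159 (log2 fold change -1.25, SE 0.41, adjusted p = 0.0056). No 48 h library of NPM1 or NCL reached a library without doxycycline, whereas library 1 of 48 h of DDX21 did.

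The remaining members that marked the top or bottom of a list at 48 h follow. HEATR1 had 5.59, 8.43 and 4.33 rescaled FPKM at 48 h, against 22.7, 7.53 and 18.6 without doxycycline (log2 fold change -1.19, SE 0.37, adjusted p = 0.0038). UTP20 had 5.35, 8.41 and 4.10 at 48 h, against 22.4, 6.55 and 19.2 (log2 fold change -1.18, SE 0.39, adjusted p = 0.0062). UTP23 had 4.67, 7.26 and 2.90 at 48 h, against 15.4, 7.15 and 14.3 (log2 fold change -1.16, SE 0.34, adjusted p = 0.0027). Without library 0 of the controls UTP20 no longer passed the test (-0.88). In these 3 genes the highest 48 h library lay above library 1 without doxycycline, so the groups overlapped. They were, with NOL9, the members with the highest fold changes, and on unnormalised FPKM they were at 0.26, 0.26 and 0.23, as 30 of the 59 members were above 0 there. Without library 1 of the controls, which was low in all 3, the unnormalised values were 0.01 for HEATR1, -0.04 for UTP20 and 0.11 for UTP23, none past the test. NOL11 (28.8, 45.1 and 18.7 at 48 h, against 126, 71.7 and 101) and UTP6 (13.7, 22.1 and 8.44, against 39.5, 26.0 and 35.3) stood at an end of the UtpA and UtpB lists. BYSL (12.0, 19.4 and 7.84, against 54.2, 41.7 and 43.0) and PNO1 (10.7, 16.8 and 6.63, against 37.7, 23.1 and 30.8) were the extremes of the late 40S factors. In the 60S lists WDR12 had 21.3, 34.4 and 12.8 at 48 h, against 81.3, 45.6 and 66.7, and RPF2 had 24.7, 40.4 and 15.5, against 86.0, 65.9 and 73.3. GNL2 had 22.4, 38.0 and 13.6 at 48 h, against 89.5, 56.9 and 71.8, and GNL3 had 28.9, 45.3 and 17.9, against 89.9, 53.4 and 75.0. The groups of these 8 genes did not overlap, on a scale where 93.3% of all tested genes were lower. Their log2 fold changes lay between -1.82 (BYSL) and -1.21 (UTP6).

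In the neighbouring lists in BE(2)-C at 48 h, 15 of 15 RNA polymerase I genes, 11 of 11 small nucleolar particle genes, 54 of 55 further assembly factors and 14 of 14 exosome genes were lower on the spike-in scale, where 93.3% of all genes were. On unnormalised FPKM 2 and 3 RNA polymerase I genes were lower and higher, 2 and 0 small nucleolar particle genes, 14 and 13 further assembly factors, and 1 and 1 exosome genes, beside 21.3% and 18.1% of all genes. Those 2 of the small nucleolar particle list were NOLC1 and TCOF1. Without library 1 of the controls the numbers were 3 and 4, 2 and 3, 16 and 15, and 1 and 4 in the same order, beside 28.3% and 27.7%. Examples on unnormalised FPKM were UBTF, the RNA polymerase I factor, at -0.72, TCOF1 at -1.37 and the exonuclease REXO4 at -1.68, and without library 1 they were at -0.69, -1.35 and -1.56. The genes outside the list whose 6 group means ran most like the members' mean on the spike-in scale were WDR5, STRAP, WDR4, GEMIN4 and SYF2, each with r at or above 0.9999. The members had a median r of 0.995 with that mean, which all genes share through the rescaling, and NOL10 was lowest at 0.84.

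Across the experiments, the members' unnormalised fold changes were set side by side. All 12 that were lower in BE(2)-C at 48 h with all libraries were also lower in SHEP-21N at 24 h (28.6% of the 42 lower there). Over the 10298 genes tested in both, 49.5% of those lower in BE(2)-C were lower in SHEP-21N, where 39.0% of all of them were and 71.2% of the members. Of the 9 members higher in BE(2)-C, WDR43, UTP6 and NPM1 were lower in SHEP-21N. These overlaps rest on library 1 of the BE(2)-C controls. Without it 11 of the 13 lower members were lower in SHEP-21N, the exceptions being WDR3 and NMD3, and so were 11 of the 17 higher ones. Over all genes the shares were then 40.7% of the lower and 46.7% of the higher. By sign alone 29 members were lower in both, 23 were lower in SHEP-21N and higher in BE(2)-C, 7 were higher in both and 0 were higher in SHEP-21N and lower in BE(2)-C; without library 1 the numbers were 26, 26, 6 and 1. Over the 59 genes Pearson's r was 0.34 and Spearman's rho 0.45, and without library 1 they were 0.08 and 0.15. In each experiment the points share their control libraries. NOL10 was at -0.28 in SHEP-21N at 24 h and at -1.39 in BE(2)-C at 48 h, and MYBBP1A at -1.24 and 0.04.

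**Figure D5:**
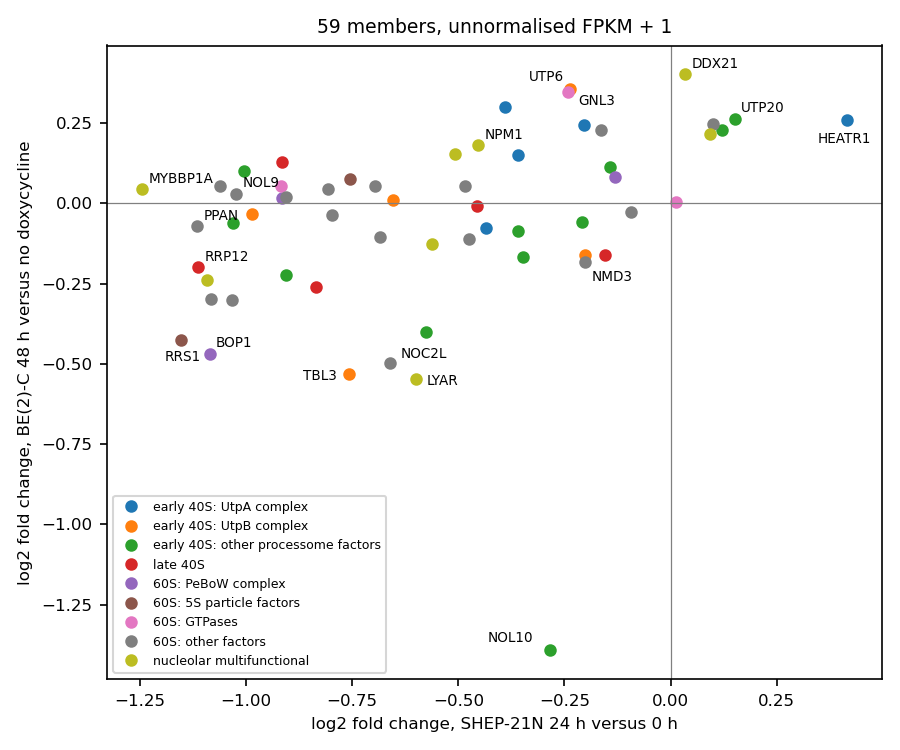
Unnormalised log2 fold change of each of the 59 members in SHEP-21N at 24 h (horizontal axis) and in BE(2)-C at 48 h (vertical axis), with colours by role. Most points spread along the horizontal axis below 0 and close to 0 vertically (Pearson's r 0.34, and 0.08 without library 1 of the BE(2)-C controls), and NOL10 lies far below the rest.

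Before doxycycline the members' unnormalised levels differed between the lines, which is given without a test. Their median was 40.4 FPKM in BE(2)-C (2.80 to 1804) and 57.7 FPKM in SHEP-21N (4.74 to 1700). The ratio of BE(2)-C to SHEP-21N ran from 0.173 (NOL6) to 4.33 (DDX10), with 22 members above 1 and 37 below. RRP12, at a ratio of 0.20, MYBBP1A, at 0.21, and NOC2L, at 0.28, were lower in BE(2)-C. NOL8, at 3.02, NMD3, at 2.03, and NCL, at 1.76, were higher there.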

How the data were processed

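Polyadenylated RNA of 38 libraries of SHEP-21N and BE(2)-C cells was analysed; 11 further samples of the series (BE(2)-C with DMSO or JQ1) were not analysed here. Per the labels' protocols, spike-ins (ERCC) entered at lysis of counted cells, and library preparation kept the strand. Per the submitters' processing notes, HISAT, Cufflinks 2.0.0 and hg19 were used. The authors deposited FPKM per gene, 1 table unnormalised and 1 rescaled to the spike-ins for each experiment, by a method that their labels do not state. FPKM give no counts, so the depth of each library is unknown and no counting interval is given. Sequencing indexes of the 8, 16 and 24 h SHEP-21N libraries repeat those of 0, 2 and 4 h, so any sequencing pools and time cannot be told apart.

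Genes with a mean unnormalised FPKM of at least 1 were tested (11867 in SHEP-21N, 11433 in BE(2)-C) with limma 3.58.1 in R 4.3.3 on log2(FPKM + 1), with 1 mean per time, an intensity trend, two-sided tests and Benjamini-Hochberg adjustment over all tested genes; calls are at an adjusted p under 0.05. The spike-in rescaled values are the main scale. On simulated data with the SHEP-21N 24 h design, the fit recovered 79.1% of genes changed by 1 on the log2 scale and 17.9% of those changed by 0.5. With the BE(2)-C 48 h design it recovered 20.9% and 1.49%. The simulation changed a small part of the genes and drew its noise independently for each. In SHEP-21N at 24 h 32.4% of tested genes were lower and 6.16% higher, and in BE(2)-C at 48 h 93.3% were lower. The rates therefore do not carry over to either comparison. Alternatives were unnormalised or median-centred values, a pseudocount of 0.1, no filter, the replicate number as a block, only the 2 groups compared, and each library left out. Unnormalised tests without single libraries, and those without the libraries that stood apart, were added after the data were seen.

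The members and the lists of neighbouring genes and markers were chosen with earlier results of these data known. A marker gene of the adrenergic list is not reported here. Values in every library are given for the targeted genes and, by the spike-in fold change at the latest time, for the 6 lowest and 4 highest members, the 3 of highest mean level and the lowest and highest of each role; up to 4 genes per neighbouring list are those of smallest adjusted p. Members whose time course or unnormalised change is described beyond this were chosen after their values were seen. Whether groups overlap is stated for named genes only and was not counted over all tested genes. Transcript lengths are of the longest coding transcript in GENCODE, and promoters are from RefSeq (GRCh38.p14), matched by symbol and not by the coordinates of the files. Python 3.11.15, numpy 2.4.6, pandas 2.3.3 and matplotlib 3.10.9 were used.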

Additional observations from a re-analysis of the deposited data

How the results depend on the processing

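On unnormalised and on median-centred values, lower members in SHEP-21N numbered 24 and 16 at 4 h, 32 and 31 at 6 h, and 37 and 37 at 8 h. They numbered 41 and 41 at 16 h, and 28 and 25 for 24 h against 8 h. Of all tested genes 13.6%, 24.1%, 23.1%, 25.4% and 16.1% were lower on centred values in these comparisons. Higher members numbered 6 and 6 at 4 h and 3 and 6 at 6 h. The shares of all genes higher on centred values were 13.5% and 27.1%. In BE(2)-C lower members numbered 1 and 1 at 3, 6 and 12 h, 7 and 4 at 24 h, 12 and 21 at 48 h, and 0 and 5 for 48 h against 24 h. Of all tested genes 0.0262%, 0.385%, 1.99%, 9.81%, 21.9% and 7.27% were lower on centred values in these comparisons. Higher ones numbered 6 and 5 at 24 h, 9 and 3 at 48 h, and 1 on centred values for 48 h against 24 h. The shares of all genes higher on centred values were 8.00%, 30.6% and 15.8%. At 48 h the centred median was -0.18 for the members and 0.06 for all genes. On unnormalised FPKM the medians were 0.00 and 0.02. With only the 2 groups compared, SHEP-21N had 28 lower members at 6 h, 21 at 8 h and 30 at 24 h, and 1 for 24 h against 8 h. Without the filter that last count was 1 and the BE(2)-C 24 h count 0. Shares of all genes were not taken for these settings, nor for the replicate block.

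Leaving out 1 library at a time gave 0 to 16 lower members in SHEP-21N at 6 h, 0 to 12 at 8 h, 0 to 20 at 16 h, 20 to 52 at 24 h and 0 to 43 for 24 h against 8 h. On unnormalised values it gave 38 to 46 lower and 0 to 1 higher at 24 h. In BE(2)-C it gave 0 to 1 lower at 24 h and 57 to 59 at 48 h, and on unnormalised values 8 to 15 lower and 5 to 17 higher at 48 h.

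At 48 h in BE(2)-C no member was above 0 on the spike-in scale, 30 were on unnormalised and 18 on centred values. Among the members named by rule, HEATR1, UTP20, UTP23 and NOL9 turned: unnormalised values gave 0.26, 0.26, 0.23 and 0.030, and centred values 0.23, 0.24, 0.26 and 0.46. The rescaling lowered the median of all genes to -1.36 where it was 0.02 on unnormalised values. Without library 1 of the controls the unnormalised values of the 4 were 0.01, -0.04, 0.11 and -0.06. The other counts compared stayed within 1.5 times the main one, and the 45 lower members at 24 h in SHEP-21N were 42 on both other scales. Of all tested genes 36.4% (unnormalised) and 32.2% (centred) were lower there.

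Between same-numbered libraries, deviations of genes from their group means had a median r of -0.02 in SHEP-21N and 0.009 in BE(2)-C. These are over 57 and 45 pairs. Such a correlation leaves out a shift shared by all genes of a library. It therefore cannot decide whether the numbers pair libraries. With the replicate block, lower members in SHEP-21N were 9 at 6 h, 7 at 8 h, 6 at 16 h, 41 at 24 h and 1 for 24 h against 8 h; in BE(2)-C it changed no count. Depth is unknown, which means that the spread between libraries is the only measure of error for low members such as NOL9 and UTP23. The 0 h group has 2 libraries, and leaving out either changed several counts.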
